A study of Mus musculus with 6 samples.

Results

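Cadherins hold neighbouring cells together, and catenins tie them to the cytoskeleton. The 7 genes described here are the type II cadherins that lie as a block on mouse chromosome 15 (Cdh6, Cdh9, Cdh10, Cdh12 and Cdh18), Cdh17 of chromosome 4, and Ctnnd2, which encodes the cadherin-binding protein delta-catenin. They are 7 of the 56953 features in the deposited count table. RNA was sequenced from the microdissected tailbud of mouse embryos at embryonic day 9.5. There were 3 libraries from Fgfr1 FCPG/FCPG embryos, homozygous for point mutations in residues of the FGF receptor that bind signalling effectors, and 3 from wild-type embryos. The question behind the comparison is what canonical FGF signalling changes in transcription while mesoderm forms. The labels list neuromesodermal progenitors, somitic mesoderm and intermediate mesoderm as the cells of this tissue. Neither the labels nor the files say whether embryos were pooled or shared a litter, so p-values measure the spread between these libraries, which may be technical.

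A classical cadherin of the type I or type II class binds like partners on the next cell through its extracellular repeats. Its cytoplasmic tail holds beta-catenin, which leads to actin through alpha-catenin, and, closer to the membrane, a protein of the p120 family, to which delta-catenin belongs. The p120 family protein slows the removal of the cadherin from the cell surface. Cdh17, the liver-intestine cadherin, has a short tail that does not use this catenin link. In embryos, Cdh6 is known from the forming nephron and from neural crest, whereas Cdh9, Cdh10, Cdh12 and Cdh18 are known mostly from the nervous system, as is Ctnnd2.

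Feature names in the deposited table could be read over only part of the genome. Levels are given as CPM, the count divided by the scaled total of its library. In stretches of chromosomes 4, 6 and 15, the 32 genes that nearly every cell uses all stood at 10 CPM or more (median 321.6 CPM). Outside them, 236 of 764 such genes did (median 0.613 CPM). The stretches were set by these very genes, so the contrast is built in. Among other protein-coding genes, 75.8% of 443 inside and 37.9% of 20403 outside reached 1 CPM. The members were chosen by family and by chromosome, with earlier results of these data known. The rule names no measured values, and whether levels entered the choice is not stated. All 7 members lay in such stretches. The stretch of chromosome 15 ran from Brix1 to Ywhaz and held 6 members, and that of chromosome 4 ran from Rps20 to Sec61b and held Cdh17. All 7 members also lay inside when the detection minimum was set at 20 CPM. Names are thus likely but not secured gene by gene. The feature named Fgfr1 lay outside, as did all but 5 of 77 listed cell type markers, among them every marker of tailbud progenitors, somite and intermediate mesoderm. Neither the genotype nor the tissue could therefore be checked on them.

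Of the 7 members, 3 were expressed in the tailbud at a mean of at least 1 CPM over the 6 libraries. Cdh6 was the most abundant at 174 CPM, followed by Ctnnd2 at 38.4 CPM and Cdh10 at 3.79 CPM. Cdh12 and Cdh18 stayed below that level, at 0.642 and 0.623 CPM. Cdh17 and Cdh9 had 12 and 11 counts over all libraries together. With 5 CPM as the minimum, Cdh6 and Ctnnd2 remained. Divided by exon length, to compare genes, the level of Cdh6 was 19.3 CPM per kilobase of exon, 5.19 times that of Ctnnd2 at 3.72 and 51.1 times that of Cdh10 at 0.377. Exon length here merged the annotated exons of all transcripts of a gene, so these ratios need not equal those of transcript numbers. The order of Cdh6, Ctnnd2 and Cdh10 held in every library, without overlap between neighbours, on the per-kilobase scale too. The levels of Cdh12 and Cdh18, at 0.102 and 0.137 CPM per kilobase, changed places between the groups. On this scale the libraries of each of these genes overlapped those of Cdh10. Cdh17 and Cdh9, both at 0.022 CPM per kilobase, could not be ordered.

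**Figure D1:**
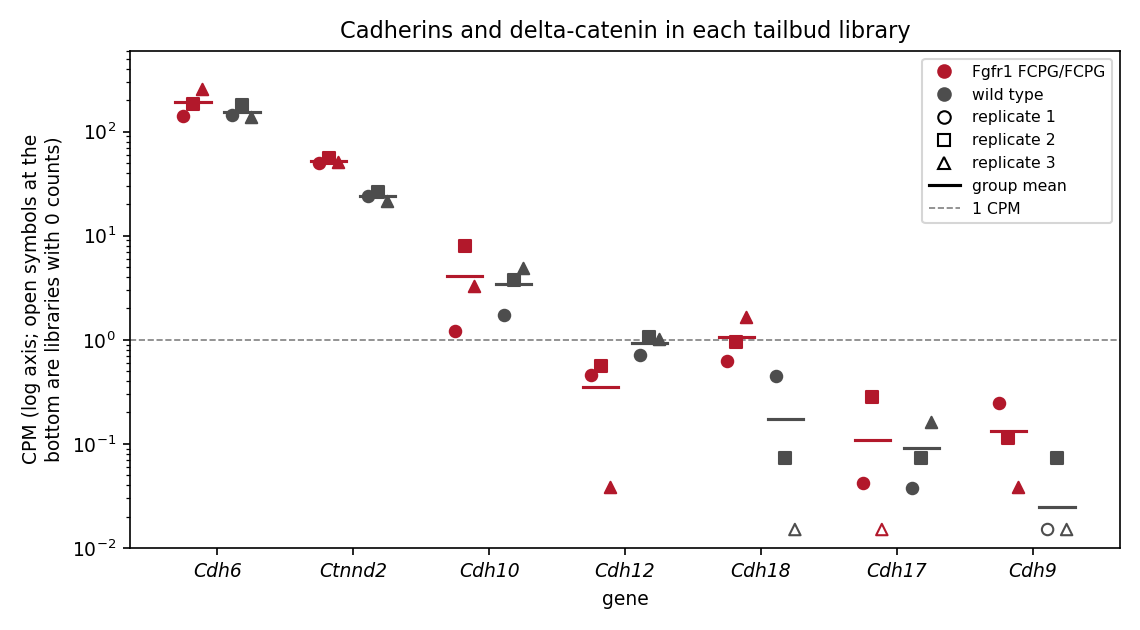
CPM of the 7 genes on a log axis, with a symbol per library (shape by replicate), Fgfr1 FCPG/FCPG in red left of wild type in grey, bars for the group means, and open symbols at the bottom for libraries with 0 counts. Cdh6 and Ctnnd2 stand above 20 CPM in all 6 libraries, and Cdh9 and Cdh17 stay below 0.3 CPM. The groups are apart for Ctnnd2, Cdh12 and Cdh18, as they are in either direction for 31.9% of all tested features.

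Of the 7 members, 5 passed the filter on low counts and were tested (edgeR quasi-likelihood test, Benjamini-Hochberg adjustment over 14550 features). Ctnnd2 alone was called, as higher in the mutant. That is 1 of 5, where 4.25% of all tested features were called higher, and 0 of 5 were called lower, where 3.67% of all were. The share over all features includes those outside the readable stretches. In the stretch of chromosome 15, where the 5 tested members lie, 9 of 100 tested features were called higher, Ctnnd2 among them, and 0 lower. At an unadjusted p below 0.05, 2 members were higher and 0 lower in edgeR, against 13.1% and 12.5% of all features. After adjustment the DESeq2 Wald test called 2 members higher and 0 lower, against 7.21% higher and 5.93% lower of the features it tested. limma-voom called 1 higher and 0 lower, against 3.91% and 3.49% of all. At an unadjusted p below 0.05 it had 2 members higher and 1 lower, against 12.4% and 13% of all features. Cdh18 and Cdh12 passed the filter only through the group in which each was higher, so their presence among the tested genes is no support for a change. The median log2 fold change of the 5 was 0.34, against -0.01 over all tested features, which describes the members that passed and not all 7.

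Ctnnd2 is located on the forward strand of chromosome 15 in the reference annotation. The protein binds the juxtamembrane part of classical cadherins and is best known from neurons, where it acts on dendrites and synapses. Its level was 50.5, 55.8 and 51.7 CPM in Fgfr1 FCPG/FCPG replicates 1 to 3, against 24.2, 26.5 and 21.5 CPM in wild-type replicates 1 to 3. The groups did not overlap, as was the case in this direction for 15.8% of all tested features. Libraries of a genotype lay close together: the lowest mutant library stood well above the highest wild-type library. The mean was 52.7 ± 2.78 CPM in the mutant and 24.1 ± 2.51 CPM in wild type (SD, n = 3 each). The log2 fold change was 1.13 ± 0.11 (SE), a 2.18-fold rise with a 95% interval of 1.84 to 2.59 (adjusted p = 0.00389, edgeR). The call held in all 15 other fits, with log2 fold changes of 1.06 to 1.20 and a largest adjusted p of 0.034, reached in edgeR when wild-type replicate 2 was left out. One of them required a log2 change beyond 0.5 (adjusted p = 0.0177, edgeR), which 0.646% of features passed as higher. Another, on library sizes without mitochondrial and erythroid genes, nearly repeated the main fit by construction. The authors' deposited table gives Ctnnd2 a log2 fold change of 1.13 with a standard error of 0.135. That table does not state its direction, and its sign is the same as here. In bulk tissue, a change in the number of cells of a type and a change in RNA per cell cannot be told apart.

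The capitals in the Ctnnd2 promoter mark its CpG dinucleotides, shown because this gene is the member that changed and because its promoter held more CpG than those of the cadherins. The sequences are from RefSeq, build GRCm38.p6, which is older than the mm39 build named for the counts, and run from 250 bases before to 50 bases after the annotated start. A promoter was matched by symbol for 6 of the 7 members, all but Cdh17.
Ctnnd2, chr15:30172284-30172583, forward strand: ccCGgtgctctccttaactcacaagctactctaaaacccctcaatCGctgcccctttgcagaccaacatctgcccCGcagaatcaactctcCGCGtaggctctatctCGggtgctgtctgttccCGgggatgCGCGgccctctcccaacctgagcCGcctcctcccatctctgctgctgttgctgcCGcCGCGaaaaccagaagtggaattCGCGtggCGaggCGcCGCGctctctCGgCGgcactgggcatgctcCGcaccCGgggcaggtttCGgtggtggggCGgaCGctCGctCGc
There were 28 CpG in the window of Ctnnd2 and a GC content of 64.7%, against 37.7% (Cdh10) to 60.3% (Cdh18) among the cadherins. The other promoters held 12 (Cdh18), 9 (Cdh12), 8 (Cdh6), 8 (Cdh9) and 2 CpG (Cdh10), and the median of all 32851 promoters in the table was 7. CpG number did not follow expression among the cadherins: Cdh6 and Cdh9 had equal numbers, at 174 and 0.079 CPM. None of the 6 matched member promoters held CCGGAA, the core of the ETS factor motif, which 14.9% of all promoters held on either strand. The same was true of CTTTGA, a TCF/LEF motif, which 16% held. The E-box CACCTG and the TATA motif TATAAA, in 20.2% and 13.6% of all promoters, were not in these 6 windows either.

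Cdh6 and Cdh9, neighbours on chromosome 15 that are transcribed in opposite directions, shared a run of 15 bases in their promoters. It is marked in capitals, and it is shown because it was the longest run shared by any pair of member promoters. These genes are also the most and the least abundant cadherins of the block.
Cdh6, chr15:13173626-13173925, reverse strand: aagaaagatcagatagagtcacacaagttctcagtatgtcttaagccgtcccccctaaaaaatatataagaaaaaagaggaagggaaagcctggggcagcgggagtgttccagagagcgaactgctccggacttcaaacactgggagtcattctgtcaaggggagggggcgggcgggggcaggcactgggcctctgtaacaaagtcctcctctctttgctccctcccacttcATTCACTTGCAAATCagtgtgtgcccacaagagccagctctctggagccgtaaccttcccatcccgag
Cdh9, chr15:16728665-16728964, forward strand: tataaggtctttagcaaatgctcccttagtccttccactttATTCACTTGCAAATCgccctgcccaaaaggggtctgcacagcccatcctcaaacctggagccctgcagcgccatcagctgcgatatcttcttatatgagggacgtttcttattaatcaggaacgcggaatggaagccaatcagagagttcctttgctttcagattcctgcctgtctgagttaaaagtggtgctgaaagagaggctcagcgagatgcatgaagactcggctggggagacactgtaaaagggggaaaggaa
The run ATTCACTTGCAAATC was in 2 of the 32851 promoters, on either strand, and these were the Cdh6 and Cdh9 promoters. The run was taken from these 2 promoters after all pairs of member promoters were compared. Its presence in both was thus given, and a set string of this length is rare in any case. It began at position -18 relative to the annotated start in Cdh6 and at -209 in Cdh9. It contains TGCAAAT, part of the octamer bound by POU factors, which 4.02% of all promoters held on either strand. The next longest run shared by member promoters was AGCCAATCAGAGA, of 13 bases, in Cdh9 and Cdh18, which 31 of all promoters held. No binding was measured here, and a shared run is a description of the sequence only.

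Cdh6 encodes K-cadherin, a type II cadherin. Its level was 142, 183 and 258 CPM in Fgfr1 FCPG/FCPG replicates 1 to 3, against 145, 179 and 137 CPM in wild-type replicates 1 to 3. The groups overlapped: mutant replicate 1 lay below wild-type replicates 1 and 2, and mutant replicate 3 was the highest of all 6. The mean was 194 ± 58.7 CPM in the mutant and 154 ± 22.3 CPM in wild type (SD, n = 3 each), and the log2 fold change was 0.34 ± 0.21 (SE, adjusted p = 0.345, edgeR). The 95% interval ran from -0.13 to 0.81 on the log2 scale, so a rise of up to 1.75-fold or a fall of up to 1.10-fold is within it. Without mutant replicate 3 the log2 fold change was 0.09, and without mutant replicate 1 it was 0.53, neither past the threshold (adjusted p = 0.749 and 0.135, edgeR). When features with very low counts were kept in the fit, Cdh6 passed at nearly the same log2 fold change, 0.35 (adjusted p = 0.0259, edgeR), in a fit that called 4.06% of 33266 features higher.

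Cdh6 made up nearly the whole signal of the cadherin block on the per-kilobase scale. Its share of the summed level of the 5 chromosome 15 cadherins was 97.5%, 94.8% and 97.6% in mutant replicates 1 to 3, against 97.7%, 97.2% and 95.9% in wild-type replicates 1 to 3. The groups overlapped, with means of 96.6% ± 1.60 in the mutant and 96.9% ± 0.928 in wild type (SD, n = 3 each; exact permutation p = 0.8, two-sided). The ratio of Ctnnd2 to Cdh6, per kilobase of exon, was 0.311, 0.266 and 0.175 in the mutant libraries, against 0.146, 0.130 and 0.137 in the wild-type libraries. It did not overlap between the groups. The exact two-sided permutation p was 0.1, which is the smallest that 3 against 3 libraries allow. The highest ratio, in mutant replicate 1, went with the lowest Cdh6 level of the mutant libraries, and the lowest mutant ratio with the highest.

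Cdh10, a type II cadherin of the brain, was low and uneven. Its level was 1.21, 7.88 and 3.31 CPM in Fgfr1 FCPG/FCPG replicates 1 to 3, against 1.71, 3.72 and 4.92 CPM in wild-type replicates 1 to 3. The mutant libraries spanned the whole range of the wild-type libraries and more. The log2 fold change was 0.25 ± 0.62 (SE, adjusted p = 0.838, edgeR), with a 95% interval from -1.17 to 1.67. Its sign turned in 4 of 14 other fits, to -0.58 without mutant replicate 2. A 2-fold change in either direction lay within that interval.

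Cdh18, another type II cadherin known from the brain, stood higher in the mutant at a level near the lower limit of the table. It had 15, 17 and 43 counts in Fgfr1 FCPG/FCPG replicates 1 to 3, or 0.624, 0.957 and 1.64 CPM. Wild-type replicates 1 to 3 had 12, 2 and 0 counts, or 0.447, 0.0736 and 0 CPM, where a count of 0 allows up to 0.161 CPM. The groups did not overlap, as was the case in this direction for 15.8% of all tested features, and wild-type replicate 1 came close to mutant replicate 1. The log2 fold change was 2.50 ± 0.81 (SE) and missed the threshold (adjusted p = 0.0991, edgeR). The DESeq2 Wald test called it, with a log2 fold change of 2.57 (adjusted p = 0.0323), and so did edgeR without wild-type replicate 1 (4.50, adjusted p = 0.0345), where 2.71% of features were called higher. In the authors' deposited table its log2 fold change was 2.58 with an adjusted p of 0.0347, where 6.69% of features were higher. Without wild-type replicate 2 the adjusted p in edgeR was 0.304. Between the exons of Cdh18 lie the pseudogenes Hnrnpa1l2-ps2, at 64.0 CPM, and Gm19840, at 6.78 CPM, and the part of their reads in its counts was not tested.

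Cdh12, also a type II cadherin of the nervous system, stood lower in the mutant. It had 11, 10 and 1 counts in Fgfr1 FCPG/FCPG replicates 1 to 3, or 0.457, 0.563 and 0.0381 CPM, against 19, 29 and 19 counts in wild-type replicates 1 to 3, or 0.708, 1.07 and 1.02 CPM. The groups did not overlap, as was the case in this direction for 16.1% of all tested features. Mutant replicate 3 held a single count. The log2 fold change was -1.45 ± 0.65 (SE), with a 95% interval from -2.95 to 0.05, and it did not pass (unadjusted p = 0.0565, adjusted p = 0.209, edgeR). No fit called it, over adjusted p of 0.0835 to 0.636, and all 14 of them kept it lower. Over the libraries left out its log2 fold change ran from -1.91 to -0.85, the smallest fall being that without mutant replicate 3. The gene spans other annotated genes, among them Acot10 on the opposite strand, and the strand setting of the counting is not given in the sources used here. Acot10 stood at 0.698 ± 0.129 CPM in the mutant and 1.17 ± 0.218 CPM in wild type (SD, n = 3 each; adjusted p = 0.194, edgeR). Its exons do not overlap those of Cdh12.

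Cdh9 and Cdh17 had at most 6 counts in any library. Cdh9, a type II cadherin of the nervous system, had 6, 2 and 1 counts in Fgfr1 FCPG/FCPG replicates 1 to 3, against 0, 2 and 0 in wild-type replicates 1 to 3. Cdh17, a cadherin of intestinal epithelium, had 1, 5 and 0 counts in the mutant libraries, against 1, 2 and 3 in the wild-type libraries. Neither passed the filter, and no difference was detectable at this depth. The upper 95% limits of their summed levels, from exact Poisson intervals that cover counting error only, were 0.251 CPM for Cdh9 and 0.192 CPM for Cdh17 in the mutant. In wild type these limits were 0.0994 CPM for Cdh9 and 0.180 CPM for Cdh17.

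**Figure D2:**
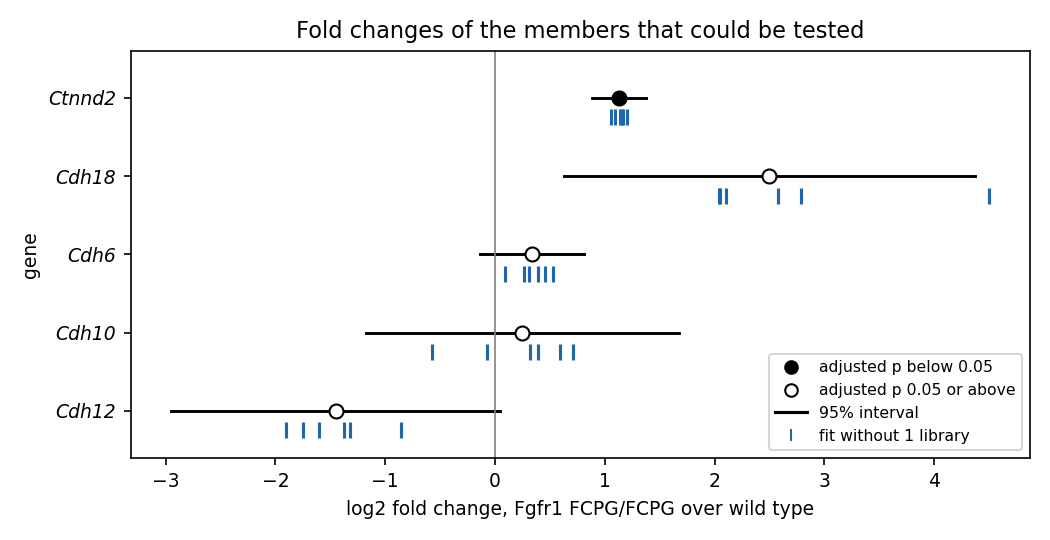
Log2 fold changes of the 5 tested members (circles, filled where the adjusted p is below 0.05) with 95% intervals, and the values of the 6 fits that leave out 1 library (blue ticks). Ctnnd2 is the only filled circle and its ticks lie between 1.06 and 1.20, whereas those of Cdh18 run from 2.04 to 4.50 those of Cdh12 from -1.91 to -0.85, and those of Cdh10 fall on both sides of 0.

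None of the coding genes next to the members passed the threshold. Ctnnd2 lies between Dnah5, a dynein of motile cilia, and Dap, a death-associated protein. Dnah5 stood at 0.600 ± 0.455 CPM in the mutant and 0.422 ± 0.135 CPM in wild type, and Dap at 97.5 ± 18.4 CPM in the mutant and 103 ± 10.6 CPM in wild type, neither past the threshold (adjusted p = 0.694 and 0.785, edgeR). Drosha, which processes microRNA precursors and precedes Cdh6, had a log2 fold change of 0.22 (adjusted p = 0.177, edgeR). Basp1, a growth cone protein that follows Cdh18, had -0.12 (adjusted p = 0.46, edgeR). Both stood at 721 CPM or more in all 6 libraries, so the low cadherins from Cdh9 to Cdh18 lay between abundant genes. Beside Cdh17, the GTPase Gem stood at 11.4 ± 2.70 CPM in the mutant and 5.35 ± 1.81 CPM in wild type (adjusted p = 0.0571, edgeR). On the other side, the phosphatase Pdp1 stood at 43.6 ± 8.36 CPM in the mutant and 34.8 ± 3.79 CPM in wild type (adjusted p = 0.226, edgeR). In the whole stretch of chromosome 15, 9 of 100 tested features were called higher and 0 lower by edgeR, against 4.25% and 3.67% of all, with a median log2 fold change of 0.21, against -0.01 over all. In the stretch of chromosome 4, 23 were higher and 12 lower of 281 (median 0.05), and in that of chromosome 6, 20 were higher and 12 lower of 156 (median 0.10).

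**Figure D3:**
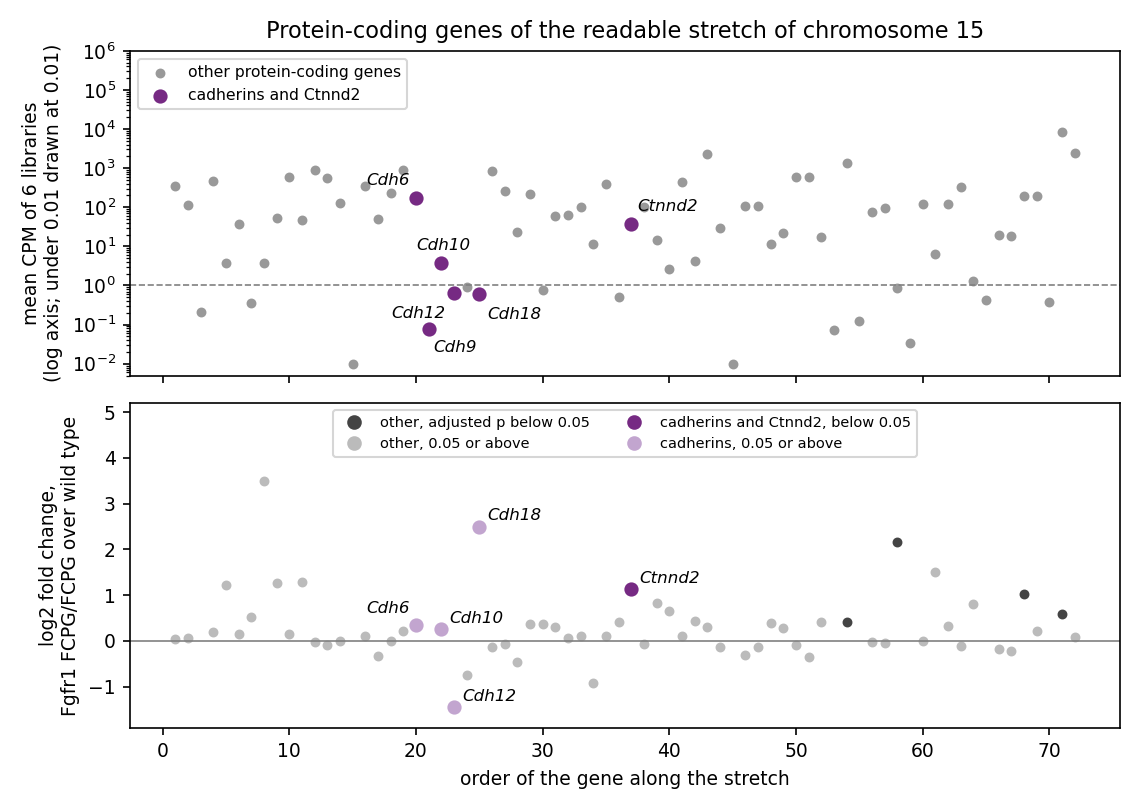
Protein-coding genes of the chromosome 15 stretch in their order along it: mean CPM over 6 libraries on a log axis (top), and log2 fold change of the tested ones (bottom, darker where the adjusted p is below 0.05). The cadherins after Cdh6 form a run of low levels, with means of 3.79 CPM or less, and Ctnnd2 is called while neither coding gene next to it is.

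Among the tested protein-coding genes of the readable stretches, members left out, those with the profile most like Ctnnd2 over the 6 libraries were Rps20 (Pearson r = 0.997), Rpl30 (r = 0.989) and Pnrc1 (r = 0.988). Rps20 and Rpl30 encode ribosomal proteins, and Pnrc1 a coactivator of nuclear receptors. Rps20 stood at 4296 ± 137 CPM in the mutant and 2995 ± 76.9 CPM in wild type (SD, n = 3 each), a smaller fold than that of Ctnnd2. Rpl30 was 1.33-fold higher in the mutant, and Pnrc1 2.12-fold, close to the 2.18-fold of Ctnnd2. Those most like Cdh6 were Spaar (r = 0.963), Nsmaf (r = 0.865) and Trio (r = 0.864). Spaar stood below 1 CPM in every library. The ranking took the highest of 387 candidate genes over 6 libraries that fall into 2 groups, and r is given as a description only.

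Of 107 listed genes of cell adhesion (cadherins, catenins, junction partners and genes of the transition between epithelium and mesenchyme), 8 lay in the readable stretches and 6 of these were tested. Ctnnd2 was called higher and none lower (edgeR), where 4.25% and 3.67% of all tested features were. Apart from the members, the readable part of the list held only Esrp1. An epithelial regulator of splicing, Esrp1 had levels of 102, 71.5 and 126 CPM in Fgfr1 FCPG/FCPG replicates 1 to 3, against 136, 165 and 174 CPM in wild-type replicates 1 to 3. The groups did not overlap, as was the case in this direction for 16.1% of all tested features. The log2 fold change of -0.67 ± 0.19 (SE) missed the threshold (adjusted p = 0.073, edgeR). The DESeq2 Wald test, edgeR without mutant replicate 3 and edgeR without the low-count filter called it lower. Type I cadherins, beta-catenin, alpha-catenins and the other p120 family members lay outside the stretches and are not described.

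Some of the few readable markers of other cell types also differed between the genotypes, and their part in the rise of Ctnnd2 was not tested. Of 14 neural markers, 1 could be read: Pou3f2, a transcription factor of neural progenitors, stood at 49.8, 306 and 20.8 CPM in the mutant libraries, against 11.7, 7.21 and 4.23 CPM in the wild-type libraries. Pou3f2 was called higher (adjusted p = 0.0411, edgeR), as were 4.25% of all tested features. Of 12 primitive erythroid markers, 4 could be read. Their summed level ran from 41.4 to 56.3 CPM in the mutant and from 127 to 200.02 CPM in wild type. Of the 3 tested, 2 were called lower (Hemgn and Tspan33, edgeR), where 3.67% of all tested features were. Tmod1, also tested, was not called (adjusted p = 0.249, edgeR), and its groups overlapped. Bpgm stood at no more than 0.112 CPM in any library. The summed level of 4 features named as Y-linked genes, which lie outside the readable stretches, was 942 and 656 CPM in mutant replicates 2 and 3 and 584 CPM in wild-type replicate 1. The remaining 3 libraries did not exceed 0.598 CPM. Their names were not checked further. With a term for embryo sex set by these levels, the log2 fold change of Ctnnd2 was 1.11 (adjusted p = 0.0111, edgeR), in a fit that called 1.88% of features higher.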

How the data were processed

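Polyadenylated RNA from 6 tailbud libraries was sequenced from stranded libraries, per the labels' protocols. Whole-number counts by Ensembl gene are what the authors deposited. Tools named in the submitters' processing notes are featureCounts, Bowtie, DESeq and DESeq2, with mm39 as the build and no versions. Annotation release and strand setting are not given in the sources used here. Column names carry 10-5, while the labels give day 9.5, which is used. The authors also deposited a DESeq2 table with, per the file headers, a mean normalized signal, log2 fold changes, Wald scores, p-values and adjusted p-values.

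IDs were cut to 18 characters, and 52029 of 56953 matched a symbol. Gene order, exon lengths and overlaps are from GENCODE M21 (an older build). Readable stretches came from a hidden Markov model over 796 ubiquitous genes. The chance of a mean of 10 CPM or more was set to 0.95 inside and 0.25 outside, with a 0.03 chance of switching. Runs of at least 6 genes with a posterior above 0.95 were kept where a run at 20 CPM overlapped them.

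Libraries held 16984568 to 27316475 counts. Tests used edgeR 4.0.16 in R 4.3.3 (filterByExpr, TMM, quasi-likelihood F test, no covariate), with calls at an adjusted p below 0.05 over 14550 features. The fit was tested on simulated data in which only features of at least 5 CPM were changed. Cdh10, Cdh12 and Cdh18 lay below that level, so the simulation does not cover them. Alternatives were DESeq2 1.42.0 (size factors, Wald test), limma-voom 3.58.1, other filters, a replicate block, a sex term, library sizes without mitochondrial and erythroid genes, a minimum fold, and each library left out. CPM use TMM-scaled library sizes, and likeness used log2 CPM with a prior count of 2. Named genes are the members, their coding neighbours, readable list and marker genes, and the 3 genes most alike. Members, lists and stretch settings were chosen with earlier results of these data known.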

Additional observations from a re-analysis of the deposited data

How the results depend on the processing

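The call of Ctnnd2 held in all 15 alternative fits, and no fit called a member lower. The fit on library sizes without mitochondrial and erythroid genes repeated the main one (618 higher and 534 lower), because TMM rescales those sizes. It is thus no separate check. The members called higher numbered 1 in the main comparison, where 4.25% of all tested features were called higher. By the DESeq2 Wald test they numbered 2 (with Cdh18), against 7.21% of all. Without the low-count filter they numbered 3 (with Cdh18 and Cdh6), against 4.06% of all. Over the libraries left out they numbered 1 to 2, where 0.44% to 5.2% of all features were called higher. Cdh18 passed in 3 fits: the Wald test (log2 fold change 2.57), no low-count filter (2.52) and without wild-type replicate 1, within 2.04 to 4.50 over the libraries left out. Cdh6 passed only without the filter (0.35). Cdh10, uncalled throughout, changed sign with limma-voom (-0.031) and the term for embryo sex (-0.0049), and ranged from -0.58 to 0.71 over the libraries left out. Listed adhesion genes in the readable stretches were 2 higher and 1 lower by the Wald test, against 7.21% and 5.93% of all features. Without the filter they were 3 and 1, against 4.06% and 3.44% of all. Over the libraries left out they were 1 to 2 higher and 0 to 1 lower, against 0.44% to 5.2% and 0.42% to 3.76% of all. The higher ones were the same members again, and the lower one was Esrp1. These list counts did not change with a 20 CPM minimum for the stretches. Over all features, 618 were higher and 534 lower. The Wald test gave 967 higher, no filter 1352 and 1145, the sex term 273 and 264, the minimum fold of 0.5 94 and 122, and the libraries left out 66 to 783 and 63 to 565, the lowest without wild-type replicate 2. By construction, these fits differ in the libraries, the features or the change required. For the Wald test and the sex term the cause was not tested. With the replicate block, 433 were higher and 411 lower, and the log2 fold changes of Ctnnd2, Cdh6, Cdh18 and Cdh12 were 1.13, 0.30, 2.60 and -1.55, with no call of a member changed. Deviations of libraries with a common number showed no positive correlation (r = -0.229, -0.00512 and -0.00752). With 3 libraries per group this cannot exclude a shared litter or batch, and the labels state no pairing. Depth limits Cdh9, Cdh17, Cdh12 and Cdh18: 3 counts amount to 0.110 to 0.169 CPM.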
